A study of Mus musculus with 20 samples.

Results

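Bile duct genes in the liver are represented here by 8 genes that mark cholangiocytes or the ductular reaction. They are the keratins Krt7, Krt19 and Krt23, the transcription factor Sox9, and the surface proteins Epcam, Muc1, Cd24a and Prom1. The genes were taken from a list of names, chosen with earlier results of these data known, and each was read from the brightest array probe set that names it alone. All 8 were measured, among 18193 genes read in that way. Liver RNA of 20 male C57BL/6J mice (the strain field of the labels spells it C56BL/6J), 7 weeks old at the start, was hybridized to 1 Affymetrix mouse array per mouse after 12 weeks of diet and a 2-h fast. Of the 4 groups of 5 mice, 3 ate the CL diet, in which fat supplied 60% of the calories and to which sodium cholate (0.5%) and cholesterol (1.25%) had been added. It was given with astaxanthin at 0.02% (CL + AX), with vitamin E at 0.02% (CL + VE) or alone (CL), and the fourth group ate CRF-1, a normal chow (NC). The CL diet is a mouse model of nonalcoholic steatohepatitis (NASH), and astaxanthin and vitamin E are antioxidants. The supplements were given from the start of the diet, and no group received a supplement in normal chow.

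Cholangiocytes are the epithelial cells that line the bile ducts, and they make up a small part of the liver. In many chronic liver diseases, small duct-like cells expand from the portal tracts into the lobule, which is called the ductular reaction. Notch signaling and the YAP and TEAD transcription complex direct liver cells towards the biliary fate, and Sox9 is expressed in cholangiocytes and in hepatocytes next to the portal tract. Whole liver was measured, so fewer cells of a type and less RNA per cell cannot be told apart.

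The promoter stretches of 3 of the genes are shown first, as context for the gene that differed most between diets (Krt23), for a gene whose difference did not pass the test (Epcam) and for a dim gene near the background (Muc1). The letters are the 250 bases before the RefSeq start in build GRCm38.p6. Krt23 lies at chr11:99477973-99493120 on the minus strand and its stretch at chr11:99493121-99493370. Epcam lies at chr17:87635979-87651127 on the plus strand and its stretch at chr17:87635729-87635978. Muc1 lies at chr3:89229056-89233381 on the plus strand and its stretch at chr3:89228806-89229055. Capitals mark matches, on either strand, to 6 short motifs, and each sequence is written 5′ to 3′ in the direction of its gene.
Krt23: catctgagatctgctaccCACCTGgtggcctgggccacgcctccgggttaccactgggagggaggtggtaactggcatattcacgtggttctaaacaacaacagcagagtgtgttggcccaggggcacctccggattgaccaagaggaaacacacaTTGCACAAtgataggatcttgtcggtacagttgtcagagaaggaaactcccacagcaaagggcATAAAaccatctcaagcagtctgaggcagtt
Epcam: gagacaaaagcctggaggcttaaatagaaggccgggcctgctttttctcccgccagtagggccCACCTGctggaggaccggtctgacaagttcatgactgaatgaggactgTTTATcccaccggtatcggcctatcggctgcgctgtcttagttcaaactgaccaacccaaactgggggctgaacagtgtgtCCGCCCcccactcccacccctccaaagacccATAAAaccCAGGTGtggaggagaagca
Muc1: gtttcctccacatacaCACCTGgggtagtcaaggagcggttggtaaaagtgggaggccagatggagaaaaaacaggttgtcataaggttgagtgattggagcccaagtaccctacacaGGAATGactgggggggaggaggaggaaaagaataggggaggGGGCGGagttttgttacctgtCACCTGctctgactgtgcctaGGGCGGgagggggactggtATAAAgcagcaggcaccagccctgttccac

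Each of the 3 stretches held the TATA-like letters ATAAA close to the start, from -31 to -27 in Krt23, from -27 to -23 in Epcam and from -30 to -26 in Muc1. These letters were found in 37.3% of 32851 RefSeq promoter stretches of the same length. The C/EBP letters TTGCNNAA (9.56% of all stretches) were found in the Krt23 stretch, from -94 to -87. The TEAD letters GGAATG (12.6%) were found in the Muc1 stretch, from -132 to -127. The E-box letters CACCTG (17.2%) were in all 3 stretches, and the GC box letters GGGCGG (32.7%) were in Epcam and Muc1. The AP-1 letters TGANTCA (6.75%) were in none of the 3. A match is a run of letters and not a measured binding site. In the same build, Krt7 lies at chr15:101412403-101427806, Krt19 at chr11:100140810-100145926, Sox9 at chr11:112782210-112787757, Cd24a at chr10:43579169-43584265 and Prom1 at chr5:43993621-44102047. The array probe sets read the 3′ part of each transcript.

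Values are log2 signals after quantile normalization, so a difference of 1 is a doubling. The brightness of a probe set does not order transcripts of different genes, and levels are therefore compared within a gene. As a guide to background, 39 olfactory receptor genes, which liver is not known to use, had a median of 2.34, a 90th percentile of 3.62 and a highest value of 4.76. Averaged over all arrays, Krt23, Sox9, Epcam, Cd24a and Prom1 lay above that highest value and Krt19 lay at 4.68. Krt7 and Muc1 (2.80) lay below the median of all probe sets, 4.21, and Krt19, Krt7 and Muc1 lay within the range of the olfactory receptor genes and their values are limited by it.

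The deposited signals differed in overall level between arrays, and the middle array of each group had a median linear signal of 26.8 in CL + AX, 17.3 in CL + VE, 23.4 in CL and 16.3 in NC. The log2 ratio of the 3′ to the 5′ probe set of Gapdh, a sign of RNA integrity, was -0.18 to -0.05 in CL + AX, -0.16 to 0.11 in CL + VE, -0.26 to -0.09 in CL and 0.38 to 0.78 in NC. The same ratio for Actb was 1.07 to 1.23 in CL + AX, 1.32 to 1.51 in CL + VE, 1.01 to 1.25 in CL and 1.54 to 1.95 in NC. The Gapdh ratio separated NC from the other groups, and the Actb ratio separated NC from the rest and also CL + VE from CL and CL + AX. Their part in the comparisons was not tested. The number of arrays, 5 per group, limits the precision of each value. The labels number the mice within a group, and nothing in them says which mice shared a cage.

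**Figure D1:**
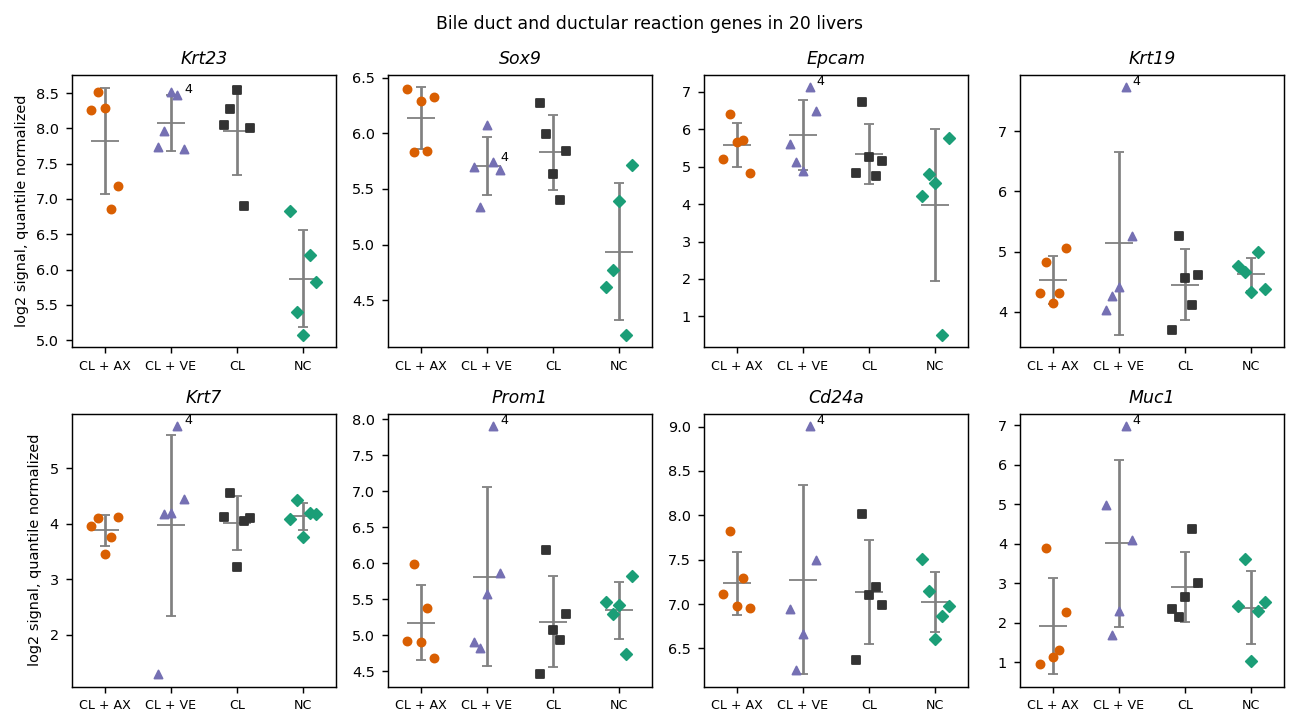
Log2 signal (quantile normalized) of the 8 genes in each of 20 mice, by diet group. Points are mice, the grey bar and whiskers are the mean and SD of 5 mice, and 4 marks CL + VE replicate 4. Krt23 was higher in every CL-fed mouse (6.85 or more) than in every NC mouse (6.83 or less).

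Krt23 and Sox9 were higher in all 3 CL-fed groups than in NC, and none of the 8 genes passed the test as lower. Krt23, a keratin induced in the ductular reaction of injured mouse and human liver, was 4.26-fold higher in CL than in NC, and Sox9 was 1.86-fold higher. In the limma fit, 2 of the 8 genes passed an adjusted p of 0.05 in CL against NC, and both were higher. Over all genes, 23.3% passed in either direction and 12% were higher, so the count of 2 is near the background share. The groups did not overlap for 1 of the 8 genes, against 15.9% of all genes.

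Krt23 had log2 signals of 8.05, 8.28, 8.55, 6.91 and 8.01 in CL mice, against 6.83, 5.41, 5.07, 6.20 and 5.83 in NC mice. The lowest CL mouse was just above the highest NC mouse. The log2 fold change was 2.09 (SE 0.34, 95% interval 1.38 to 2.81, adjusted p = 0.000157). In CL + AX mice Krt23 was 8.27, 8.51, 8.28, 6.85 and 7.18, and in CL + VE mice 7.73, 7.96, 8.52, 8.47 and 7.71. Thus 1 CL mouse and 2 CL + AX mice lay between the NC mice and the other CL-fed mice. Against NC, the log2 fold change was 1.95 in CL + AX (adjusted p = 0.000304) and 2.21 in CL + VE (adjusted p = 0.000164), both with an SE of 0.34. Krt23 passed in CL against NC under all 23 alternatives tried. It has 1 probe set, so the alternatives on the probe set rule reused the same signals.

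Sox9, a transcription factor of cholangiocytes and of periportal hepatocytes, had log2 signals of 6.27, 6.00, 5.63, 5.40 and 5.84 in CL mice, against 4.61, 4.77, 5.39, 4.19 and 5.72 in NC mice. The groups overlapped, since NC replicate 5 lay above 2 of the CL mice. The log2 fold change was 0.89 (SE 0.24, 95% interval 0.40 to 1.39, adjusted p = 0.0110). In CL + AX mice Sox9 was 6.40, 5.83, 6.29, 5.84 and 6.33, all above the NC mice, with a log2 fold change of 1.20 against NC (SE 0.24, adjusted p = 0.000978). In CL + VE mice it was 5.70, 5.34, 6.07, 5.74 and 5.67, with a log2 fold change of 0.77 against NC (SE 0.24, adjusted p = 0.0352). The Sox9 call was less stable than that of Krt23. The second probe set of Sox9 gave a log2 fold change of 1.53 in CL against NC (adjusted p = 0.0982), in which NC replicate 1 was at -0.26 and the other 4 NC mice were at 4.42 to 4.82. In CL + VE against NC, Sox9 lost its call when any of NC replicates 1, 2 and 4 or CL + VE replicates 1, 3, 4 and 5 was left out (adjusted p = 0.0568 to 0.107, and 0.0654 without CL + VE replicate 4).

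In CL + AX against NC, 2 of the 8 genes passed (23.3% of all genes, 12% higher) and 2 did not overlap (16.9% of all genes). In CL + VE against NC, 2 of the 8 passed (17.5% of all genes, 10.2% higher) and 1 did not overlap (12.3% of all genes). The 3 comparisons with NC share the same 5 NC mice. In CL + AX against NC, the log2 fold changes were -0.10 for Krt19, -0.25 for Krt7, -0.17 for Prom1, 0.21 for Cd24a and -0.47 for Muc1. Against NC, CL + VE gave 0.51 for Krt19, -0.16 for Krt7, 0.47 for Prom1, 0.25 for Cd24a and 1.62 for Muc1, and none of these values passed. By mean level, Krt23 was ordered CL + VE (8.08), CL (7.96), CL + AX (7.82) and NC (5.87), and Sox9 was ordered CL + AX (6.14), CL (5.83), CL + VE (5.70) and NC (4.94). For both genes no neighbours among the CL-fed groups passed the test. Below them, the step from the lowest CL-fed group to NC passed for Krt23, and for Sox9 it passed with CL + VE and NC overlapping and in only 10 of 22 alternatives.

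Epcam, an adhesion protein of cholangiocytes and of liver progenitor cells, did not pass against NC in any group. It had log2 signals of 5.21, 6.41, 5.67, 5.72 and 4.84 in CL + AX, 5.62, 5.13, 4.89, 7.13 and 6.49 in CL + VE, 4.84, 6.72, 5.26, 4.75 and 5.16 in CL, and 4.23, 4.82, 4.57, 0.50 and 5.76 in NC. A single NC mouse, replicate 4, lay far below all the others, and without it the log2 fold change in CL against NC was 0.50 (adjusted p = 0.531). The log2 fold change in CL against NC was 1.37 (SE 0.67, 95% interval -0.02 to 2.76, adjusted p = 0.182). Against NC it was 1.59 in CL + AX (adjusted p = 0.113) and 1.88 in CL + VE (adjusted p = 0.0694), and without NC replicate 4 it was 0.73 (adjusted p = 0.333) and 1.01 (adjusted p = 0.169). Without NC replicate 5, Epcam passed in CL + AX (adjusted p = 0.0375) and in CL + VE (adjusted p = 0.0226). The second Epcam probe set gave -0.41 in CL against NC (SE 0.33, adjusted p = 0.463), the opposite sign.

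The other 5 genes did not pass in CL against NC. Krt19 and Krt7, the keratins most used to stain bile ducts, had log2 fold changes of -0.17 (95% interval -1.18 to 0.83) and -0.12 (95% interval -1.18 to 0.94). Krt19 averaged 4.45 ± 0.59 in CL and 4.62 ± 0.27 in NC, and Krt7 averaged 4.01 ± 0.49 in CL and 4.13 ± 0.24 in NC (SD, n = 5 each). Prom1 (CD133), a membrane protein of ductal and progenitor cells, had a log2 fold change of -0.16 (95% interval -1.05 to 0.74). Cd24a, a glycoprotein of immature and ductal epithelium, had 0.11 (95% interval -0.64 to 0.86), and its 2 other probe sets had 0.08 and -0.19. Muc1, a mucin of glandular and ductal surfaces, had 0.52 (95% interval -1.14 to 2.18). On this scale, and with Krt19, Krt7 and Muc1 within the range of the olfactory receptor genes, the intervals left out a doubling for Krt19, Krt7, Prom1 and Cd24a but not for Muc1, and they left out a halving for Cd24a alone. The intervals use a spread pooled over the 4 groups, so CL + VE mice widen them. The CL + VE SD was 1.52 for Krt19, 1.63 for Krt7, 1.25 for Prom1 and 1.07 for Cd24a, against 0.64 or less in CL and NC.

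**Figure D2:**
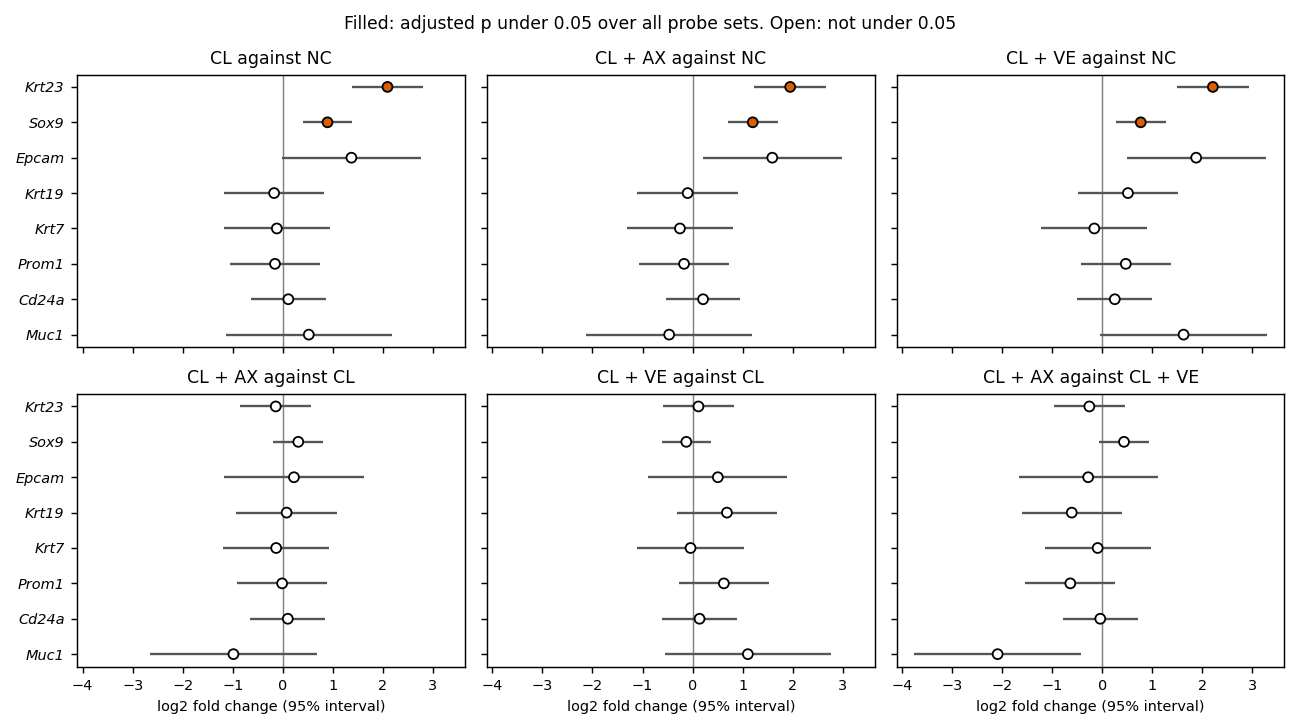
Log2 fold changes of the 8 genes in 6 comparisons, with 95% intervals (horizontal lines). Filled points passed an adjusted p of 0.05 over all 45037 probe sets. Krt23 and Sox9 are the filled points in each comparison with NC, and no point is filled in the 3 comparisons among CL-fed groups.

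Among the CL-fed groups, which show whether a supplement moved these genes, no member passed. None of the 8 passed in CL + AX against CL, in CL + VE against CL or in CL + AX against CL + VE, and the background was 0 in each, since no gene passed in the limma fit. The groups did not overlap for 0 of the 8 genes in any of the 3 comparisons, against 1.96%, 1.59% and 2.53% of all genes. At an unadjusted p under 0.05, 0, 0 and 1 of the 8 passed. By the methods' t-test they were 0, 0 and 1 as well, with Sox9 in place of Muc1, and 0 after adjustment in each.

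In CL + AX against CL, the log2 fold changes of Krt23 (-0.14, 95% interval -0.86 to 0.57) and Sox9 (0.31, 95% interval -0.19 to 0.81) excluded a doubling and a halving. For the other 6 genes the log2 fold changes in CL + AX against CL were 0.22 for Epcam, 0.08 for Krt19, -0.13 for Krt7, -0.01 for Prom1, 0.10 for Cd24a and -0.99 for Muc1. In CL + VE against CL, Krt7 had -0.04, Krt23 had 0.12 (95% interval -0.60 to 0.83) and Sox9 had -0.12 (95% interval -0.62 to 0.37). Between the supplements at the same 0.02%, Sox9 had 0.43 in CL + AX against CL + VE (95% interval -0.06 to 0.93, adjusted p = 0.625). Krt23 had -0.26, Epcam -0.28, Krt19 -0.61, Krt7 -0.09, Prom1 -0.64 and Cd24a -0.04. In the second Sox9 probe set all CL + AX mice (5.58 to 5.86) lay above all CL + VE mice (4.59 to 5.44) and all CL mice (4.77 to 5.57), with adjusted p of 0.822 and 0.925 in the limma fit. Those p values rest on a spread pooled over the 4 groups. For this probe set the SD was 2.19 in NC, against 0.12 in CL + AX, 0.34 in CL + VE and 0.29 in CL. Its interval in CL + AX against CL, -0.72 to 1.85, did not exclude a doubling. Muc1, whose CL + AX mean of 1.92 was below the median of the olfactory receptor genes, had -2.09 (SE 0.80, unadjusted p = 0.0160, adjusted p = 0.421). Its log2 signals were 0.95, 3.90, 1.13, 1.32 and 2.28 in CL + AX, against 4.98, 1.70, 2.31, 6.97 and 4.09 in CL + VE. Both groups held mice below the 90th percentile of the olfactory receptor genes, and without CL + VE replicate 4 the Muc1 difference was -1.35 (SE 0.73, adjusted p = 0.674).

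CL + VE replicate 4 was the highest of the 20 mice for 6 of the 8 genes, against 5.61% of all genes. This mouse was noticed after the values were seen. Krt19 was 7.73 in it, against 4.03 to 5.26 in the other 4 CL + VE mice, and 2.47 above the next highest mouse of any group. Prom1 was 7.91 in it, 1.71 above the next highest mouse, and Cd24a was likewise 0.99 above the next highest. Krt7 was 5.75, Epcam 7.13 and Muc1 6.97 in it. Krt23 (8.47) and Sox9 (5.74) were within the range of the other CL + VE mice. Thus the genes that set this mouse apart were not those that differed between diets.

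The other genes that stood highest in this mouse include products of glands, ducts and smooth muscle. Among genes at or above the median signal, ranked by the gap to the next highest mouse, Krt19 came first. It was followed by Ltf (lactoferrin, 2.38 above), Myl9 (a smooth muscle myosin light chain, 2.01), Sftpd (a surfactant lectin, 1.87), Plet1 (1.83) and Acta2 (smooth muscle actin, 1.81). These genes were chosen after their values were seen. Of 22 other bile duct genes, 8 were above all other CL + VE mice and 4 were the highest of 20, with a median difference of 0.27 from the other CL + VE mice. Among them Tff2 was 1.80 above the next highest mouse, at 6.31 against a mean of 3.59 in the other CL + VE mice. Mmp7, a protease of injured bile duct epithelium, was 1.22 above the next highest mouse. Onecut1, a biliary and hepatic transcription factor, was 0.50 below the mean of the other CL + VE mice. Aqp1, a water channel, was 0.03 below that mean.

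Marker lists of other tissues were set beside these values. Over all genes, this mouse was the highest of its group for 20.8%. Of 10 smooth muscle markers, a list chosen after the values were seen that shares Acta2 and Des with the stellate cell list, 9 were above all other CL + VE mice and 6 were the highest of 20, with a median difference of 2.08 from the other CL + VE mice. The summed linear signal of this list was 207 to 300 in CL + AX, 237 to 1258 in CL + VE, 191 to 368 in CL and 215 to 241 in NC. Of 8 mesothelial cell markers, 7 were above the other CL + VE mice and 4 were the highest of 20 (median difference 1.44). Their summed signal was 140 to 249 in CL + AX, 102 to 283 in CL + VE, 73.3 to 184 in CL and 80.7 to 159 in NC. Of 9 intestine and gallbladder markers, 5 were above the other CL + VE mice and 2 were the highest of 20, with a median difference of 0.69. Their summed signal was 4235 to 5409 in CL + AX, 4275 to 4970 in CL + VE, 4731 to 5251 in CL and 2667 to 3331 in NC. That sum was 4877 in this mouse. It follows mainly Fabp2, at a log2 signal of 12.10 in this mouse, with the next brightest, Lgals4, at 7.83. Dim genes of the list stood further apart. Against the mean of the other CL + VE mice, Olfm4 was 4.72, Vil1 3.87 and Muc13 2.25 higher. Those 3 means lay below the 90th percentile of the olfactory receptor genes. Fabp2 and Cdx2 went the other way, with differences of -0.02 and -0.93. The median log2 fold change of the list in CL against NC was -0.41, with 2 genes called higher and 1 lower. Of 4 adipocyte markers, another list chosen after the values were seen, 3 were above the other CL + VE mice and 2 were the highest of 20 (median difference 1.87). Their summed signal was 490 to 711 in CL + AX, 390 to 815 in CL + VE, 378 to 867 in CL and 418 to 760 in NC. It was 777 in this mouse and 815 in CL + VE replicate 5, so this sum did not set the mouse apart. The median difference was -0.84 for 8 pancreas markers, -0.03 for 13 hepatocyte markers and -1.04 for 10 macrophage markers. Of the 8 pancreas and the 8 mesothelial cell markers, 2 each lay at or above the median of all probe sets. The values of both lists are thus limited by background. Most hepatocyte markers lay near the top of the signal range, where quantile normalization limits differences. The part of other tissue in the bile duct values of this mouse was not tested.

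**Figure D3:**
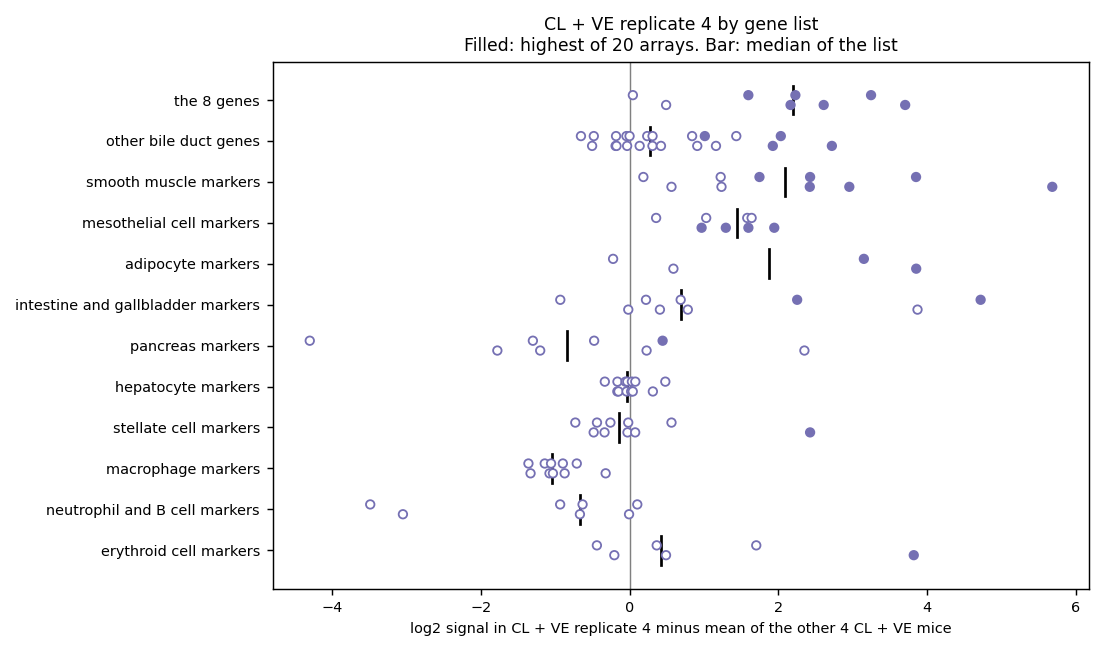
Difference in log2 signal between CL + VE replicate 4 and the mean of the other 4 CL + VE mice, 1 point per gene, by gene list. Black bars are list medians and filled points are genes for which this mouse was the highest of 20. The medians were 2.20 for the 8 genes, 2.08 for smooth muscle markers and -0.03 for hepatocyte markers.

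Without this mouse, the differences between CL + VE and CL shrank for Krt19, Prom1, Epcam and Muc1, and grew for Krt7 and Cd24a. In CL + VE against CL, the log2 fold change of Krt19 was 0.04 (SE 0.31) without it and 0.69 (SE 0.48) with it. For Prom1 it was 0.10 without it and 0.63 with it, for Epcam 0.19 and 0.51, and for Muc1 0.36 and 1.11. Krt7 had -0.49 without it and -0.04 with it, and Cd24a had -0.29 without it and 0.14 with it. The direction of Krt19, Cd24a and Prom1 in CL + VE against NC turned when the mouse was left out (-0.14, -0.18 and -0.05 without it, 0.51, 0.25 and 0.47 with it), and none of these values passed the test either way.

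**Figure D4:**
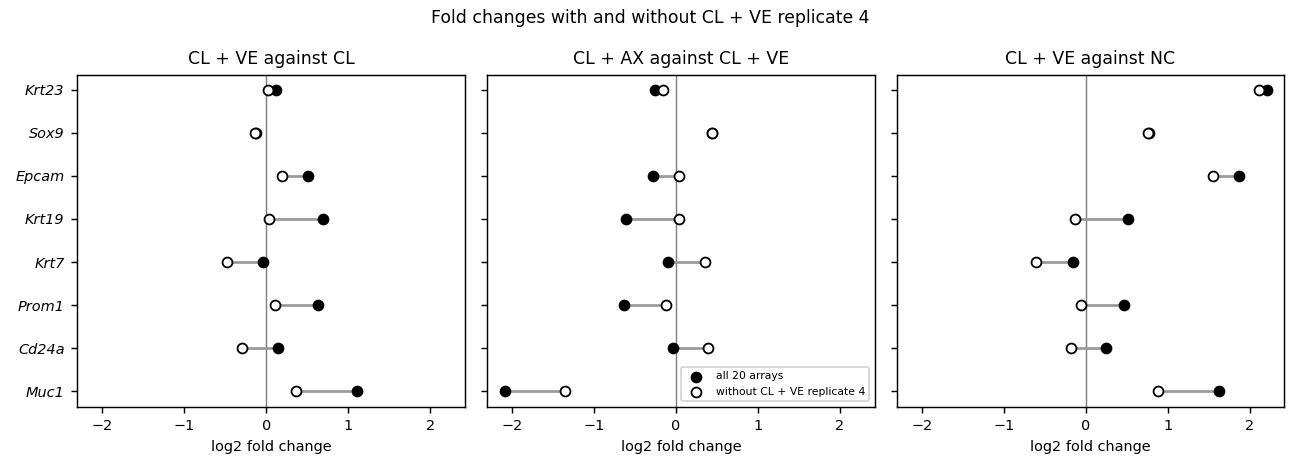
Log2 fold changes of the 8 genes in the 3 comparisons that hold CL + VE, with all 20 arrays (filled) and without CL + VE replicate 4 (open). Krt19 and Prom1 lay near 0 without that mouse in CL + VE against CL (0.04 and 0.10), and Krt23 and Sox9 moved by little.

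Some pairs of the 8 genes varied together between mice of the same group. For each of the 28 pairs, the deviations from the group means were correlated over 20 arrays, and p values came from 100000 permutations of mice within groups (two-sided), adjusted over the 28 pairs. The 2 values of a pair come from 1 array, so they share its quality. Of the 28 pairs, 6 had an adjusted p under 0.05 by Pearson's r and 3 by Spearman's rho of ranks within groups, all positive. Without CL + VE replicate 4, 2 pairs passed by r and 0 by rho.

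Cd24a and Prom1 had r = 0.90 (permutation p = 0.000290, adjusted p = 0.00406) and rho = 0.70 (permutation p = 0.00371, adjusted p = 0.0346). Without the 2 arrays farthest from the group means in Cd24a, r was 0.77, and without CL + VE replicate 4 it was 0.78 (adjusted p = 0.0232). Epcam and Prom1 had r = 0.65 (permutation p = 7.0e-05, adjusted p = 0.00196) and rho = 0.75 (permutation p = 0.00143, adjusted p = 0.0346). Without the 2 arrays farthest in Epcam, r was 0.79, and without CL + VE replicate 4 it was 0.69 (adjusted p = 0.00672). Krt19 and Cd24a had r = 0.87 (permutation p = 0.00121, adjusted p = 0.0113) but rho = 0.40 (permutation p = 0.122, adjusted p = 0.571). No pair with Krt23 or Sox9 was among the pairs that passed. CL replicate 2 was the highest of its group for 5 of the 8 genes (Krt7, Krt19, Epcam, Cd24a and Prom1), against 24.7% of all genes. CL + AX replicate 2 was the highest of its group for 5 as well, against 20.2% of all genes. Both mice were picked after the values were seen, and some of these genes varied together.

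**Figure D5:**
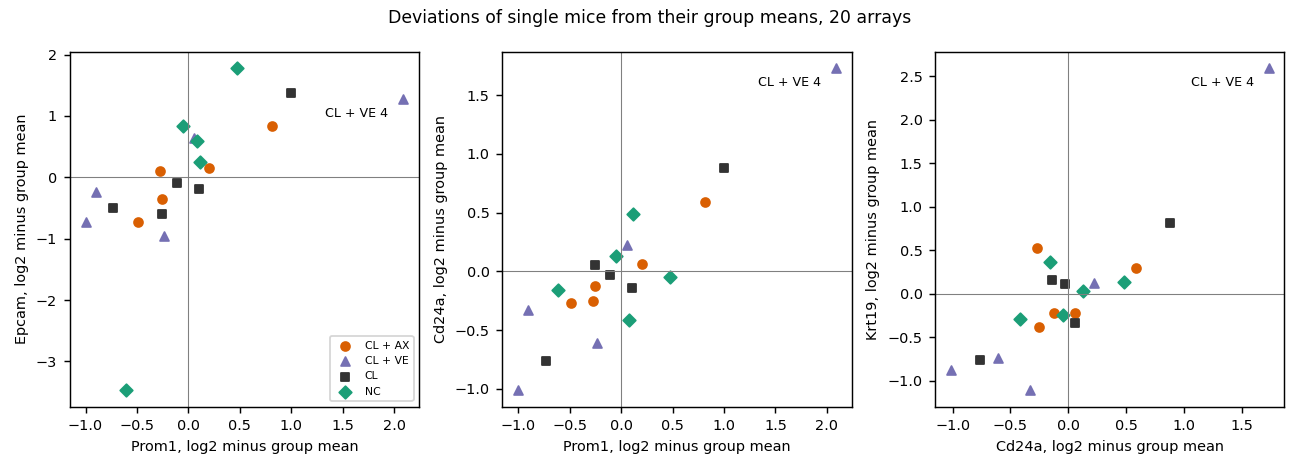
Deviation of each mouse from its group mean in log2 signal, for Epcam, Cd24a and Krt19 against a second gene, over 20 arrays. Colours and shapes are diet groups. The pairs had r of 0.65, 0.90 and 0.87, and CL + VE replicate 4 lies at the upper right of each panel.

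Other bile duct genes moved in both directions in CL against NC. Of 26 listed, 22 were measured, of which 4 were higher and 4 lower, with a median log2 fold change of 0.44, against -0.04 over all genes. Over all genes, 23.3% passed in either direction and 12% were higher. Cdh1 (E-cadherin, an adhesion protein of epithelia) rose by 1.01 (SE 0.16, adjusted p = 8.4e-05) and Pkhd1 (fibrocystin, a protein of the cholangiocyte cilium) rose by 1.29 (SE 0.22, adjusted p = 0.000241). Anxa4, a membrane-binding annexin, rose by 0.56 (SE 0.12). Slc4a2, the chloride and bicarbonate exchanger of bile secretion, fell by 0.81 on the log2 scale (SE 0.19, adjusted p = 0.00490). Of these 22 genes, 4 were higher and 3 lower in CL + AX against NC, where 23.3% of all genes passed. In CL + VE against NC 5 were higher and 0 lower, where 17.5% of all genes passed and 10.2% were higher. The keratins Krt8, Krt18, Krt20 and Krt80 had 0 of 4 past the test in CL against NC. Krt8, a keratin of hepatocytes and cholangiocytes, had 0.31 (SE 0.11, adjusted p = 0.0596).

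In CL against NC, 12% of all genes were called higher, a share that counts dim genes too. In the lists that follow, 13 of 13 Notch and 13 of 16 YAP and TEAD genes reached the median of all probe sets. So did 6 of 10 ductular mitogens and receptors. Without the dimmer probe sets, 22519 were tested and 4174 called higher, against 4178 of 45037 with them. The share of 12% is thus too low a guide for lists of brighter genes, and an excess over it was not tested. Of 13 Notch pathway genes, 4 were called higher and 0 lower (median 0.27). Notch1, a receptor, rose by 0.64 (adjusted p = 0.000556) and Jag1, a ligand, by 0.84 (adjusted p = 0.00439). The target genes Hes1 and Hey1 rose by 1.24 (adjusted p = 0.00310) and 1.70 (adjusted p = 0.00428). Of 16 YAP and TEAD pathway genes measured, 5 rose and none fell (median 0.30). Axl, a receptor kinase and target, rose by 2.06, Ccn1, a secreted target, by 1.76, Stk4, a kinase that restrains YAP, by 0.32 and Wwtr1 (TAZ), a partner of TEAD, by 0.34. Of 10 ductular mitogens and receptors measured, 3 rose and none fell (median 0.11), namely Fgfr2 (0.77), Il6st (0.34) and Tnfrsf12a, the TWEAK receptor (1.48). These lists were chosen with results of these data known. No gene of them passed in the 3 comparisons among CL-fed groups.

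Most macrophage and stellate cell markers were higher in CL than in NC, as Krt23 and Sox9 were, and most hepatocyte markers did not pass. Of 10 macrophage markers, 10 rose in CL against NC (median 2.33), and of 10 stellate cell markers, 8 rose (median 1.25). The summed linear signal of the macrophage markers was 7371 to 16616 in CL + AX, 6124 to 16421 in CL + VE, 7973 to 20389 in CL and 1582 to 5080 in NC. For the stellate cell markers it was 4511 to 11663 in CL + AX, 5402 to 12867 in CL + VE, 7273 to 12541 in CL and 3062 to 5061 in NC. Of 13 hepatocyte markers, 1 rose and 2 fell, and their summed signal was 119865 to 124873 in CL + AX, 121761 to 129334 in CL + VE, 120704 to 128022 in CL and 120729 to 129117 in NC. Most of these markers lay near the top of the signal range. Quantile normalization gives the brightest ranks the same values on every array. The scaling thus limits how far this sum can move, and it does not measure the share of hepatocytes. No marker in these lists was at 0. The part of macrophages and stellate cells in the values of Krt23 and Sox9 was not tested.

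The genes most like Krt23 over the 20 arrays, by the root mean square difference of log2 signals each centred on its mean, were Cldn1 (0.51), a tight junction protein, Zfp503 (0.52) and Dync2li1 (0.53), a part of the ciliary dynein. They were found among 11397 genes at or above the median signal. The genes most like Sox9 were Irf1 (0.30), an interferon-response transcription factor, Dzip3 (0.31) and Elf1 (0.31).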

How the data were processed

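Total RNA of 20 livers was labelled with the GeneChip 3′ IVT kit and hybridized to Affymetrix whole-genome mouse arrays. The deposited values are linear intensity signals of 45101 probe sets, which the authors computed with Microarray Suite (MAS5) and analysed in the Subio platform. The arrays had not been brought to a common level. The 64 control probe sets were removed, the log2 signals were quantile normalized, and 45037 probe sets were tested with limma 3.58.1 in R 4.3.3, in 1 fit that held all 4 groups (residual degrees of freedom, 16) and let the variance prior follow the mean signal. The Benjamini-Hochberg adjustment ran across every tested probe set of a comparison, and the threshold was 0.05. Of the probe sets, 34945 name 1 gene, 932 several and 9160 none. Gene positions and promoter letters were taken from RefSeq tables of GRCm38.p6, in which 5 of the 8 genes had a promoter entry. The fit was tested on simulated data.

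The members and lists were chosen with earlier results of these data known. All 8 genes are named in every comparison. Of each other list up to 4 genes with the smallest p are named, together with any gene of the cell type lists and the 3 genes most like each member that passed between CL and NC. Alternatives covered the scaling, an offset of 16, a filter on dim probe sets, the variance trend, array weights, the replicate block, the test, the groups in the fit, the probe set rule and leaving out each mouse.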

Additional observations from a re-analysis of the deposited data

Results flagged for a closer look

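Among 52 sets of 5 mice (13 probe sets of the 8 genes in 4 groups), 4 held a mouse that stood far from the rest of its group by Dixon's test. Chance gives about 1 in 20 such sets. In the second Sox9 probe set, NC replicate 1 was at a log2 signal of -0.26, with the other 4 NC mice at 4.42 to 4.82. In the main Epcam probe set, CL replicate 2 was at 6.72, with the other 4 CL mice at 4.75 to 5.26. In the second Epcam probe set, CL + VE replicate 1 was at 4.86, with the others at 5.17 to 5.29, and NC replicate 4 was at 3.39, with the others at 5.27 to 5.43. NC replicate 4 was thus the lowest NC mouse in both Epcam probe sets. The rule did not flag CL + VE replicate 4 in any set.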

How the results depend on the processing

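The 8 genes gave 1068 values under alternatives. Of these 1030 kept their side of the threshold, either with the same sign or with a sign change that moved the value by less than the main SE. A further 16 lost and 4 gained a call, and none that was called changed direction. The remaining 18 were uncalled values that changed sign and moved by that SE or more. For values that kept their sign, the size of the move was not scored. Uncalled values changed sign 71 times. Krt23 kept its call in CL against NC under all 23 alternatives, of which those on the probe set rule reused its 1 probe set. All lost calls were those of Sox9 and all gained calls those of Epcam. Beside 2 of the 8 genes called, the methods' t-test called 1 in CL against NC, 1 in CL + AX against NC and 1 in CL + VE against NC. The second brightest probe set and the mean of all probe sets of a gene each called 1 in CL against NC and 1 in CL + VE against NC. In CL + VE against NC, the fit without the variance trend called 1 and the fit of only those groups called 1. Leaving out each mouse gave 2 in CL against NC, 2 to 3 in CL + AX against NC, 1 to 3 in CL + VE against NC and 0 in the other comparisons. The cause was not tested.

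Epcam passed in CL + AX against NC in the signals without scaling (adjusted p = 0.0123) and in CL + VE against NC after the filter on dim probe sets (adjusted p = 0.0452). Krt7 and Muc1 were removed by that filter. Without scaling, the median log2 fold change of all probe sets shifted to 0.40 in CL against NC, 0.63 in CL + AX against NC and 0.43 in CL + AX against CL + VE.

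Over all probe sets, 7910 were called in CL against NC, 7762 in CL + AX against NC, 5895 in CL + VE against NC, 1 in CL + AX against CL, 0 in CL + VE against CL and 1 in CL + AX against CL + VE. The methods' t-test called 3444, 3964, 1632, 0, 0 and 1. In CL against NC, 52.8% of calls were higher, against 95.9% in the signals without scaling, 41.6% after median centring and 62.9% after scaling by 1 factor per array. In CL + AX against NC, 52.6% were higher, against 97.7%, 29.1% and 66.5%, and 16596 probe sets were called without scaling. In CL + VE against NC, 54.9% were higher, against 86.7% without scaling. In CL + AX against CL + VE, 1886 probe sets were called without scaling and 1652 with median centring, and leaving out single mice gave 0 to 13. With the mean of all probe sets of a gene, 3328, 3347 and 2535 of 18193 genes were called in the comparisons with NC.

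Replicate numbers did not pair the mice. The correlations of same-numbered deviations ran from -0.05 to 0.06 over 30 pairs. With the replicate block, 2, 2 and 2 of the 8 genes were called in the 3 comparisons with NC and 0 in the others, and 8076, 7917 and 6032 probe sets against NC. The replicate block changed no call of the 8 genes.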
